A study of Mus musculus with 12 samples.

Results

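The Kruppel-like factors examined here are the 9 genes Klf1, Klf2, Klf3, Klf4, Klf6, Klf7, Klf9, Klf10 and Klf13, of 18194 genes named on the array. They were measured by the probe sets annotated to 1 of these genes and to no other, which gave 31 probe sets. Of these, 28 lay above the filter on low signals, and 8 of the 9 genes entered the tests, out of 12673 genes tested. Klf4 was the member left out. The probe set of highest mean signal stands for each gene unless others are named.

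The arrays hold RNA of I/11 cells, a mouse pro-erythroblast line established from fetal liver of p53-deficient mice, which grows as immature red cell precursors in culture. Stable lines carried 1 of 3 pLKO lentiviral shRNA vectors under puromycin: sh14 or sh133, 2 hairpins against phospholipase C gamma 1 (Plcg1), or the scrambled control scr. The labels name StemPro-34 medium with erythropoietin, stem cell factor and dexamethasone for all 3 lines. Each line has 1 array at 1, 6, 12 and 22 h, which gives 4 arrays per line and 12 in all, and the starting event of the hours is not stated in the labels. Nothing in them states separate cultures for the time points, so p-values measure only the residual spread between these 12 arrays. That spread may be technical, and in the comparisons of lines and of times it also holds any difference in time course between the lines. The array titles carry 2 different dates. All sh14 arrays and the sh133 arrays at 6 and 12 h carry 1 of them, and all scr arrays and the sh133 arrays at 1 and 22 h carry the other. The sh14 and scr lines share no title date, so each of their time courses lies within 1 title date, and their difference is estimated through the sh133 arrays, which lie on both.

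Kruppel-like factors are transcription factors with zinc fingers at the C-terminus that bind GC-rich and CACCC-type DNA boxes. KLF1 is the erythroid member that activates globin, heme synthesis, membrane skeleton and cell cycle genes as red cells mature. In mouse erythroid cells it also activates Klf3, whose product recruits C-terminal binding proteins and represses many of the same promoters. Other members are known as early response genes: Klf2, Klf4, Klf6 and Klf10 respond to serum, cytokines, shear stress or transforming growth factor beta, and Klf9 is a direct target of the glucocorticoid receptor.

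Erythroid identity and the knockdown were checked first. All 8 erythroid markers on the array lay above the filter in the 3 lines, and the mean of their log2 signals was 6.56 to 7.53 over the sh14 arrays, 6.98 to 7.84 over the sh133 arrays and 7.01 to 7.84 over the scr arrays. Plcg1 had log2 signals of 4.16, 3.86, 4.27 and 4.30 in sh14 cells at 1, 6, 12 and 22 h, and 4.53, 4.35, 4.37 and 4.39 in sh133 cells, against 4.74, 4.45, 4.61 and 4.31 in scr cells. Both hairpin lines were lower than scr at 1, 6 and 12 h, and at 22 h the 3 signals lay between 4.30 and 4.39. Both hairpins together differed from scr by -0.24 ± 0.17 (SE) on the log2 scale (limma, adjusted p = 0.592), so a fall of the target was not shown at this number of arrays. Markers of mast cells and basophils moved with the lines and the times. The mean of the log2 signals of the 7 on the array was 1.88 to 2.76 at 22 h, against 2.60 to 3.36 at 1 h, and these ranges overlapped. The log2 of their summed signal, which the brightest gene dominates, ran from 5.64 to 6.55 at 22 h, against 8.51 to 9.51 at 1 h. Mcpt8 lay below the filter, Hdc had the highest signal of the list (5.10 to 5.97 at 22 h, against 8.31 to 9.47 at 1 h), and Fcer1a was at 3.58 to 4.55 in sh14 cells and at 0.85 to 1.54 in the other 8 arrays. The part of these markers in the results below was not tested. In bulk RNA, fewer cells of a type and less RNA per cell cannot be told apart.

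Of the members with a promoter in the table used, those whose signals moved most in each direction are shown here, Klf1 and Klf3 for the genes that rose with time and Klf6 and Klf9 for those that fell. Each line gives the 250 bases before the annotated start, 5′ to 3′ on the gene's strand, from the RefSeq promoter table of build GRCm38.p6. The windows are chr8:84901732-84901981 (+) for Klf1, chr5:64803271-64803520 (+) for Klf3, chr13:5861239-5861488 (+) for Klf6 and chr19:23140976-23141225 (+) for Klf9. Capitals mark matches, on either strand, to any of 3 motifs: the CACCC-type box CCNCNCCC, the GATA motif GATAA and the STAT motif TTCNNNGAA.
Klf1: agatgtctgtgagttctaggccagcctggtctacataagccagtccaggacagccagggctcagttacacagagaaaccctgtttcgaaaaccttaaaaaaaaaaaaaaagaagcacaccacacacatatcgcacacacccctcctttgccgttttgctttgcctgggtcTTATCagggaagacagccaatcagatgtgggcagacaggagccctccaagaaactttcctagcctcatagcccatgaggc
Klf3: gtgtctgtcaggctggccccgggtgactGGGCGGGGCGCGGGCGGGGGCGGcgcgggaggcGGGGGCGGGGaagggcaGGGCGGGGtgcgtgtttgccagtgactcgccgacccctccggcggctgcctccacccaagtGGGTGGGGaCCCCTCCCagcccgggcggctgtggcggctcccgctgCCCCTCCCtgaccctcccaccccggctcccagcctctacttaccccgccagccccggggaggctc
Klf6: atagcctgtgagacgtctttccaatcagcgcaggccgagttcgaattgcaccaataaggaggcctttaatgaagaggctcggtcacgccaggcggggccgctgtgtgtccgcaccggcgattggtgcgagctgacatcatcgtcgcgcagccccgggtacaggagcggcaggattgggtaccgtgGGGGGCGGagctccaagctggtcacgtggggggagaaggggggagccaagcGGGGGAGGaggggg
Klf9: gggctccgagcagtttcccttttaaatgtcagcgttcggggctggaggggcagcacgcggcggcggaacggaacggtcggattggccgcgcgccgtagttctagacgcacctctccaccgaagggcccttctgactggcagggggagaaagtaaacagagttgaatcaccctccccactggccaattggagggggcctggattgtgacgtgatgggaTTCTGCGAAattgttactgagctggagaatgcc
The table held a promoter for 8 of the 9 members, all but Klf10. The CACCC-type box stood in 6 of these 8, against 45.9% of all 32851 promoters in the table. Klf3 held 10 matches to it, some of which overlap, and Klf6 held 2, while Klf1 and Klf9 held 0. The pattern CCNCNCCC also takes in GC-rich letters without CACCC, and it misses some stretches of CACCC. The letters CACCC stand unmarked in the lines of Klf1, Klf3 and Klf9, so 0 matches does not mean that CACCC is absent. The GATA motif stood in 1 of the 8, at -80 to -76 of Klf1, where the line above shows it as its reverse complement, against 22.6% of all promoters. The STAT motif stood in 1 of the 8, at -33 to -25 of Klf9, against 7.02% of all promoters. These matches describe the letters in the windows and were not tested for binding.

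Between 1 h and the later times the family moved in opposite directions. Klf1 and Klf3 rose, and Klf2, Klf6, Klf7, Klf9 and Klf10 fell, so that 7 of the 8 tested members passed the threshold of adjusted p = 0.05 at 22 h against 1 h, 2 higher and 5 lower. In that comparison 18.1% of all tested genes were called, 8.74% higher and 9.34% lower. The median log2 difference of the 8 members was -1.05, and that of all tested genes was 0.02. The same 2 up and 5 down were called at 6 h against 1 h, where 4.86% of all genes were called, and at 12 h against 1 h, where 7.06% were. Between 22 h and 6 h 0 of the 8 members passed (limma, adjusted p = 0.109 to 0.975), where 5.56% of all genes did, so the count is near that share. An unadjusted p below 0.05 was seen for 2 of the 8 members and for 21.5% of all genes. The median of the 8 members was -1.21 at 6 h, -1.15 at 12 h and -1.05 at 22 h, each against 1 h.

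**Figure D1:**
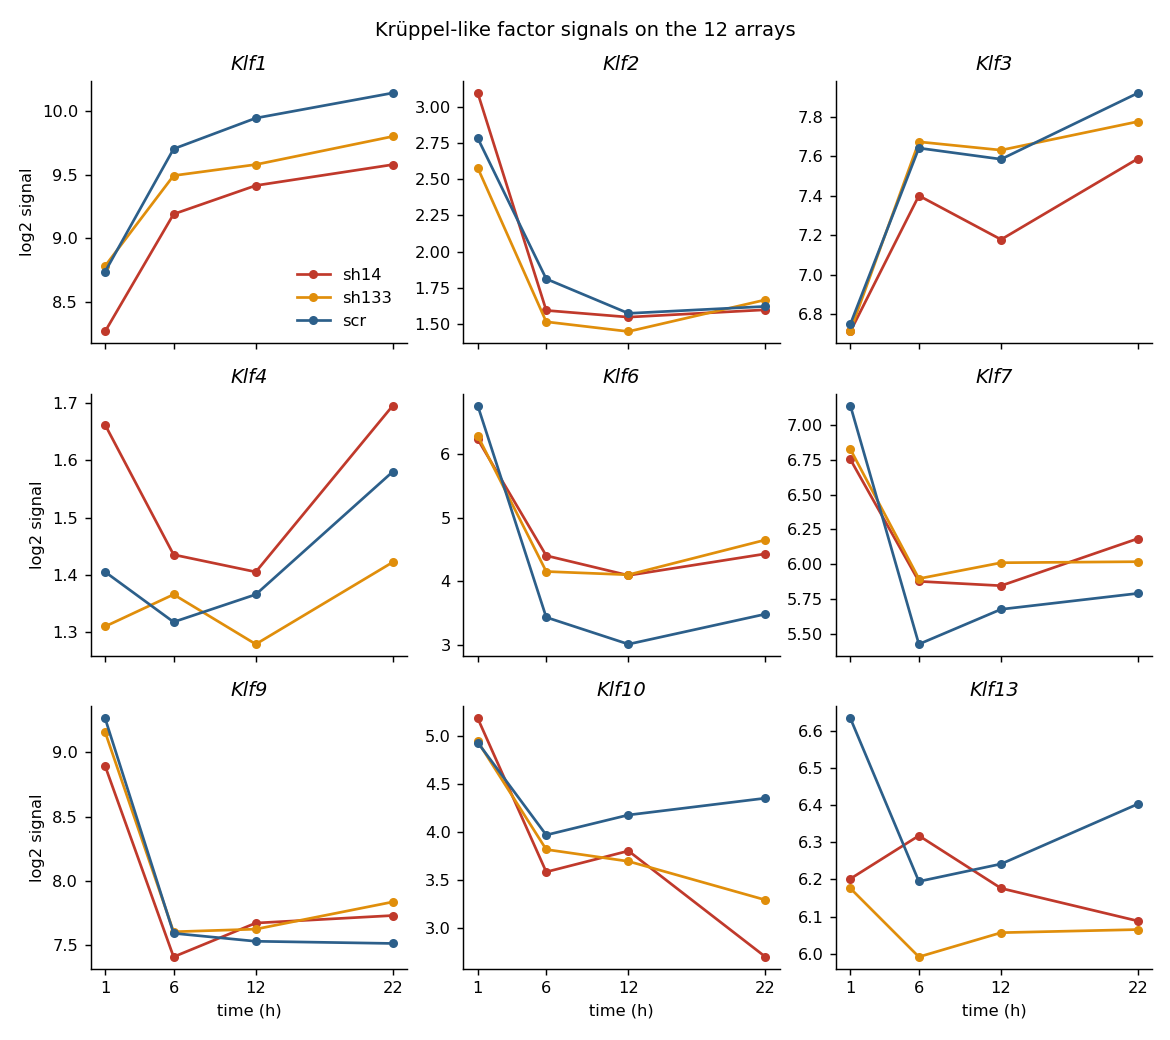
Log2 signal of each of the 9 members against time in hours, with 1 line per shRNA (sh14, sh133, scr) and 1 point per array; the vertical scale differs between panels. The 1 h points lie below all later points for Klf1 and Klf3 and above all later points for Klf2, Klf6, Klf7, Klf9 and Klf10.

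Klf1, the erythroid activator of the family, had log2 signals of 8.26, 9.19, 9.42 and 9.58 in sh14 cells at 1, 6, 12 and 22 h. It had 8.78, 9.49, 9.58 and 9.80 in sh133 cells, against 8.74, 9.70, 9.95 and 10.15 in scr cells. In each line the signal was higher at every later time than at the time before, and the 3 arrays at 1 h did not overlap with the 9 later ones. At 22 h it was 2.38-fold higher than at 1 h, a log2 difference of 1.25 ± 0.10 (SE, 95% interval 1.03 to 1.47, limma, adjusted p = 3.79e-05). Much of this was present by 6 h, where the log2 difference to 1 h was 0.92 ± 0.11 (adjusted p = 0.00284). The further difference between 22 h and 6 h was 0.33 ± 0.11 and did not pass (adjusted p = 0.109, and 0.0450 without a term for the title date). Klf1 was measured by 1 probe set.

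Klf3, the repressor that KLF1 activates in mouse erythroid cells, had log2 signals of 6.71, 7.40, 7.18 and 7.59 in sh14 cells at 1, 6, 12 and 22 h. Its signals were 6.71, 7.67, 7.63 and 7.78 in sh133 cells, against 6.75, 7.64, 7.59 and 7.92 in scr cells. The 3 lines lay between 6.71 and 6.75 at 1 h, all 9 later arrays lay above them, and sh14 had the lowest signal of the 3 lines at each later time. Klf3 was 2.05-fold higher at 22 h than at 1 h, a log2 difference of 1.04 ± 0.10 (SE, adjusted p = 9.65e-05). The differences to 1 h were 0.78 ± 0.11 at 6 h (adjusted p = 0.00462) and 0.67 ± 0.11 at 12 h (adjusted p = 0.00563). The 12 h call was lost when the scr array at 12 h was left out (0.62, adjusted p = 0.0616).

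The 7 probe sets of Klf3 did not move alike. At 22 h against 1 h all 7 had a fitted difference above 0, from 0.02 to 1.04 on the log2 scale, and 3 of them passed when every probe set was tested by itself. The mean of the 7 gave 0.44 at 22 h (adjusted p = 0.00561), under 1.04 for the brightest, and the call held. It gave 0.22 at 6 h (adjusted p = 0.225) and 0.21 at 12 h (adjusted p = 0.207), so at 6 and 12 h the rise was called for the brightest probe set and not for the mean. Over all members, 4 probe sets passed higher and 16 passed lower at 22 h against 1 h, of the 28 above the filter.

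**Figure D2:**
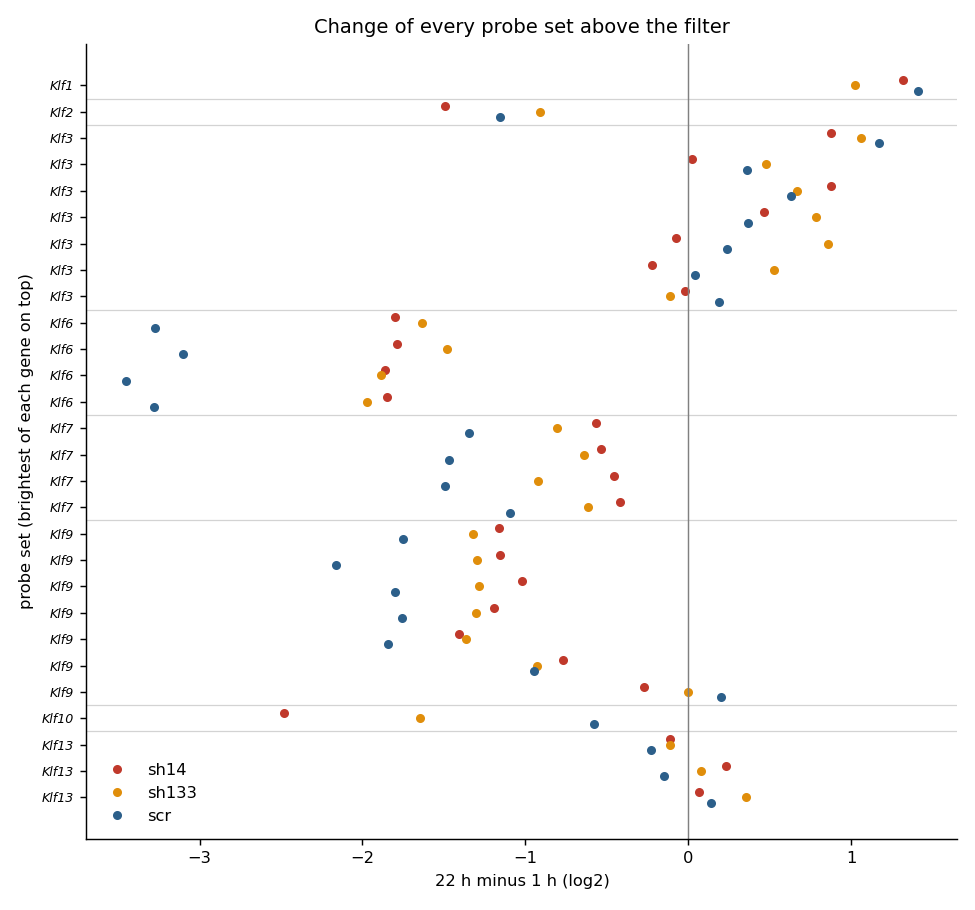
Log2 signal at 22 h minus that at 1 h for each of the 28 probe sets above the filter, grouped by gene, with 1 point per line (sh14, sh133, scr). All points of the 4 probe sets of Klf6 and the 4 of Klf7 lie below 0, with scr lowest in each, and the points of the 7 probe sets of Klf3 spread to both sides of 0.

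Klf6, a broadly expressed member known as an early response gene, fell the most in the fit over the 3 lines. It had log2 signals of 6.23, 4.40, 4.09 and 4.43 in sh14 cells at 1, 6, 12 and 22 h. It had 6.28, 4.15, 4.10 and 4.65 in sh133 cells, against 6.76, 3.43, 3.01 and 3.48 in scr cells. All 3 arrays at 1 h lay above the 9 later ones, and the low point of each line was at 12 h. Klf6 was 4.71-fold lower at 22 h than at 1 h, a log2 difference of -2.24 ± 0.29 (SE, limma, adjusted p = 0.000600). By size this difference exceeded that of 99.9% of the tested genes. The difference was -2.48 ± 0.32 at 6 h (adjusted p = 0.00370) and -2.74 ± 0.32 at 12 h (adjusted p = 0.00155), each against 1 h. All 4 probe sets of Klf6 above the filter passed at 22 h against 1 h, with differences of -2.40 to -2.12. By line, Klf6 changed between 1 h and 22 h by -3.27 in scr cells, against -0.58 for Klf10. In sh14 cells the change was -1.80 for Klf6 and -2.48 for Klf10, and in sh133 cells it was -1.63 and -1.65.

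Klf7, a member known for its role in neurons, had a like profile. It had log2 signals of 6.75, 5.88, 5.85 and 6.18 in sh14 cells at 1, 6, 12 and 22 h and 6.82, 5.90, 6.01 and 6.02 in sh133 cells, against 7.14, 5.43, 5.68 and 5.79 in scr cells. The 1 h arrays and the later arrays did not overlap. Klf7 was 1.88-fold lower at 22 h than at 1 h, a log2 difference of -0.91 ± 0.15 (SE, adjusted p = 0.00221). Its 4 probe sets ran from -0.96 to -0.71 and all passed. Over the 12 arrays the signals of Klf7 and Klf6 had a Pearson r of 0.965, and the 12 arrays share the time step that both genes show.

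Klf9, a target of the glucocorticoid receptor, had log2 signals of 8.89, 7.41, 7.67 and 7.73 in sh14 cells at 1, 6, 12 and 22 h and 9.16, 7.61, 7.63 and 7.84 in sh133 cells, against 9.26, 7.59, 7.53 and 7.51 in scr cells. The later arrays lay in a narrow band from 7.41 to 7.84, below every 1 h array. At 22 h the signal was 2.66-fold lower than at 1 h, a log2 difference of -1.41 ± 0.12 (SE, adjusted p = 6.21e-05). At 6 h the difference to 1 h was already -1.54 ± 0.13 (adjusted p = 0.000907), which ranked 5 by p among the 12673 genes. Of its 7 probe sets, 6 passed lower at 22 h, and the dimmest one differed by -0.02 (adjusted p = 0.913).

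Klf2, known from endothelial and lymphoid quiescence, had log2 signals of 3.09, 1.60, 1.55 and 1.60 in sh14 cells at 1, 6, 12 and 22 h and 2.58, 1.52, 1.45 and 1.67 in sh133 cells, against 2.78, 1.81, 1.58 and 1.62 in scr cells. The later values all lay under the median signal of every array (1.84 to 1.92), where the array separates levels poorly, so the size of the fall is uncertain. The fitted difference at 22 h against 1 h was -1.19 ± 0.12 (SE, adjusted p = 0.000193).

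Klf10, an early target of transforming growth factor beta, had log2 signals of 5.18, 3.58, 3.80 and 2.70 in sh14 cells at 1, 6, 12 and 22 h and 4.94, 3.82, 3.69 and 3.29 in sh133 cells, against 4.93, 3.97, 4.17 and 4.35 in scr cells. All later arrays lay below the 1 h arrays, and at 22 h both hairpin lines had their lowest signal while scr had its highest after 1 h. The difference at 22 h against 1 h was -1.57 ± 0.27 (SE, adjusted p = 0.00305) and it passed under every alternative run (-1.99 to -1.18, adjusted p = 0.000324 to 0.0280). The calls at 6 h (-1.24, adjusted p = 0.0446) and 12 h (-1.14, adjusted p = 0.0486) were near the threshold. Each was lost when any array of the following set was left out: sh14 at 1, 6 or 12 h, any of the sh133 arrays, or scr at 6 or 12 h. The adjusted p then ran from 0.0683 to 0.244 at 6 h and from 0.0777 to 0.209 at 12 h.

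Klf13 was not called at any later time against 1 h, and Klf4 was not tested. Klf13, a member known from T cells and heart, had log2 signals of 6.20, 6.32, 6.18 and 6.09 in sh14 cells at 1, 6, 12 and 22 h and 6.18, 5.99, 6.06 and 6.06 in sh133 cells, against 6.63, 6.19, 6.24 and 6.40 in scr cells. The arrays of all times overlapped. Its difference at 22 h against 1 h was -0.15 ± 0.11 (95% interval -0.40 to 0.10, adjusted p = 0.403), and 0 of its 3 probe sets passed. In scr cells all 3 lay below their 1 h signal at 6 h (-0.44 to -0.14) and at 12 h (-0.39 to -0.08). In the hairpin lines they lay to both sides of it at these hours. Klf4, one of the pluripotency reprogramming factors, ran from 1.28 to 1.70 over the 12 arrays, and its mean of 1.44 lay just under the filter at 1.45.

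**Figure D3:**
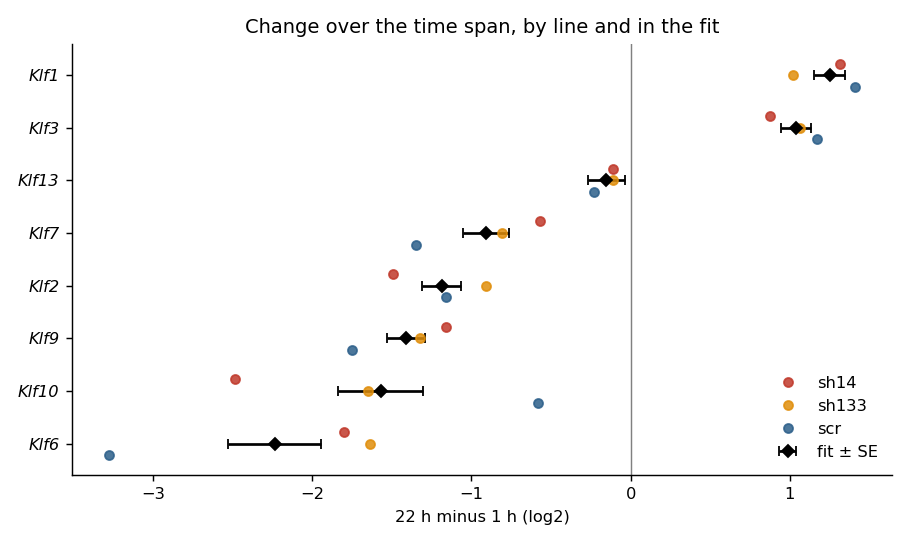
Log2 signal at 22 h minus that at 1 h for the 8 tested members, with coloured points for the lines sh14, sh133 and scr and a black diamond with bars for the fitted difference ± SE. Klf1 and Klf3 lie above 0 in every line, and Klf6 is lowest in scr at -3.27 while Klf10 is lowest in sh14 at -2.48.

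The knockdown comparisons called no member. Both hairpins against scr called 0 of 8 members (limma, adjusted p = 0.341 to 0.945, 1 at an unadjusted p below 0.05), where 2.18% of all genes were called. The same count was 0 of 8 for sh14 against scr (limma, adjusted p = 0.191 to 0.992, 2 unadjusted), with 3.06% of all genes called. It was 0 of 8 for sh133 against scr (limma, adjusted p = 0.270 to 0.953, 1 unadjusted), with 4.91% of all genes called. Between the hairpins, sh14 against sh133 called 0 of 8 members (limma, adjusted p = 0.0750 to 0.907, 1 unadjusted), where 14.6% of all genes were called. The first 3 of these comparisons share the scr arrays. A p that misses the threshold does not show that the lines have equal levels. For both hairpins against scr, the intervals of Klf1 and Klf6 are given below, and those of the other members are not.

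Klf1 was lower in sh14 cells than in scr cells at all 4 times, with matched log2 differences of -0.47, -0.51, -0.53 and -0.57 at 1, 6, 12 and 22 h. The matched differences of sh133 to scr were 0.04, -0.21, -0.37 and -0.34. Both hairpins together differed from scr by -0.27 ± 0.13 (SE, 95% interval -0.56 to 0.03, limma, adjusted p = 0.401). Without a term for the title date that difference was -0.37 (adjusted p = 0.00548), that of sh14 to scr was -0.52 (adjusted p = 0.00106) and that of sh14 to sh133 was -0.30 (adjusted p = 0.0229), so these calls depend on how the title date is treated. The only arrays of sh133 and scr that share a title date are those at 1 and 22 h, and they differed by 0.04 and -0.34.

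Of the comparisons between lines, Klf3 came nearest to the threshold in sh14 against sh133. Its matched log2 differences of sh14 to sh133 were -0.0042, -0.27, -0.45 and -0.19 at 1, 6, 12 and 22 h. The fitted difference of sh14 to sh133 was -0.33 ± 0.11 (SE, limma, adjusted p = 0.0750), and that of sh14 to scr was -0.45 ± 0.17 (adjusted p = 0.191). The first of these passed in 3 of 19 alternatives and not in the other 16. The 3 were array weights (-0.36, adjusted p = 0.00986), no sh14 array at 1 h (-0.36, adjusted p = 0.0348) and no scr array at 1 h (-0.36, adjusted p = 0.0437). Over all 19 the difference ran from -0.38 to -0.13, with an adjusted p of up to 0.430. Tested separately, the 7 probe sets of Klf3 ran from -0.33 to 0.13 in sh14 against sh133, with 2 above 0 and 0 passing.

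Klf6 had differences to scr of opposite sign at 1 h and at the later times. At 1 h it was lower in both hairpin lines than in scr, with log2 differences of -0.53 in sh14 and -0.47 in sh133. At 6, 12 and 22 h it was higher, by 0.97, 1.08 and 0.95 in sh14 and by 0.72, 1.09 and 1.17 in sh133. The same order, below scr at 1 h and above it at the 3 later times, held in both lines for each of the 4 probe sets above the filter. Between 1 h and 22 h the log2 signal changed by -1.80 in sh14 cells and by -1.63 in sh133 cells, against -3.27 in scr cells. The sh133 and scr arrays at 1 and 22 h share a title date.

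This pattern was tested as the slope on log2 hours in the hairpin lines minus the slope in scr. For Klf6 the slope difference was 0.37 ± 0.06 per doubling of hours (SE, 95% interval 0.24 to 0.51), which ranked 17 by p among all genes and did not pass (limma, adjusted p = 0.0819). In that comparison 0 of 8 members and 0.0316% of all genes were called, and 4 members had an unadjusted p below 0.05. The slope passed with array weights (0.37, adjusted p = 0.0131), without the sh14 array at 22 h (0.41, adjusted p = 0.0475) and without the sh133 array at 1 or 22 h (0.37, adjusted p = 0.0372 for either). It was 0.06 (adjusted p = 0.920) without the scr array at 1 h, so the slope rests on that array. Taken by line, the slope against scr was 0.36 for sh14 (adjusted p = 0.0418), where 1 of 8 members and 2.79% of all genes were called. It was 0.39 for sh133 (adjusted p = 0.172), where 0 of 8 members (2 at an unadjusted p below 0.05) and 0.0237% of all genes were called. The 2 slopes differed by -0.03 (adjusted p = 0.912). These slopes by line were added after the data were seen.

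The level of Klf6 against scr passed in 1 alternative alone, that without the scr array at 1 h. This was 1 of 18 alternatives for both hairpins together and for sh14, and 1 of 19 for sh133. Without that array, which leaves scr its later times, both hairpins were higher than scr by 1.20 (limma, adjusted p = 0.00682). The sh14 line was higher by 1.25 (adjusted p = 0.0108) and the sh133 line by 1.14 (adjusted p = 0.00244). With all arrays the difference of both hairpins to scr was 0.51 ± 0.39 (SE, 95% interval -0.36 to 1.38, adjusted p = 0.628). Over the 18 alternatives that difference ran from 0.06 to 1.20.

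Klf7 had the same order as Klf6. At 1 h its log2 difference to scr was -0.39 for sh14 and -0.31 for sh133, and it lay above scr at 6, 12 and 22 h, by 0.45, 0.17 and 0.39 in sh14 and by 0.47, 0.33 and 0.23 in sh133. All 4 of its probe sets had this order in both lines. Its slope difference was 0.14 ± 0.05 per doubling of hours (SE, adjusted p = 0.212), and it was -0.06 (adjusted p = 0.922) without the scr array at 1 h. Klf9 had a slope difference of 0.12 ± 0.04 (adjusted p = 0.214), and at 22 h it lay above scr by 0.22 in sh14 and 0.32 in sh133.

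Klf10 had slope differences of the opposite sign. Its matched differences to scr were 0.25, -0.38, -0.37 and -1.65 in sh14 cells and 0.01, -0.15, -0.48 and -1.06 in sh133 cells at 1, 6, 12 and 22 h. Its slope difference was -0.29 ± 0.08 per doubling of hours (SE, 95% interval -0.48 to -0.10, adjusted p = 0.157), and with array weights it passed (-0.26, adjusted p = 0.0493). Without the scr array at 22 h it was -0.14 (adjusted p = 0.708), and without the scr array at 1 h it was -0.57 (adjusted p = 0.675). For Klf1, Klf2, Klf3 and Klf13 the slope differences lay between -0.05 and 0.04.

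**Figure D4:**
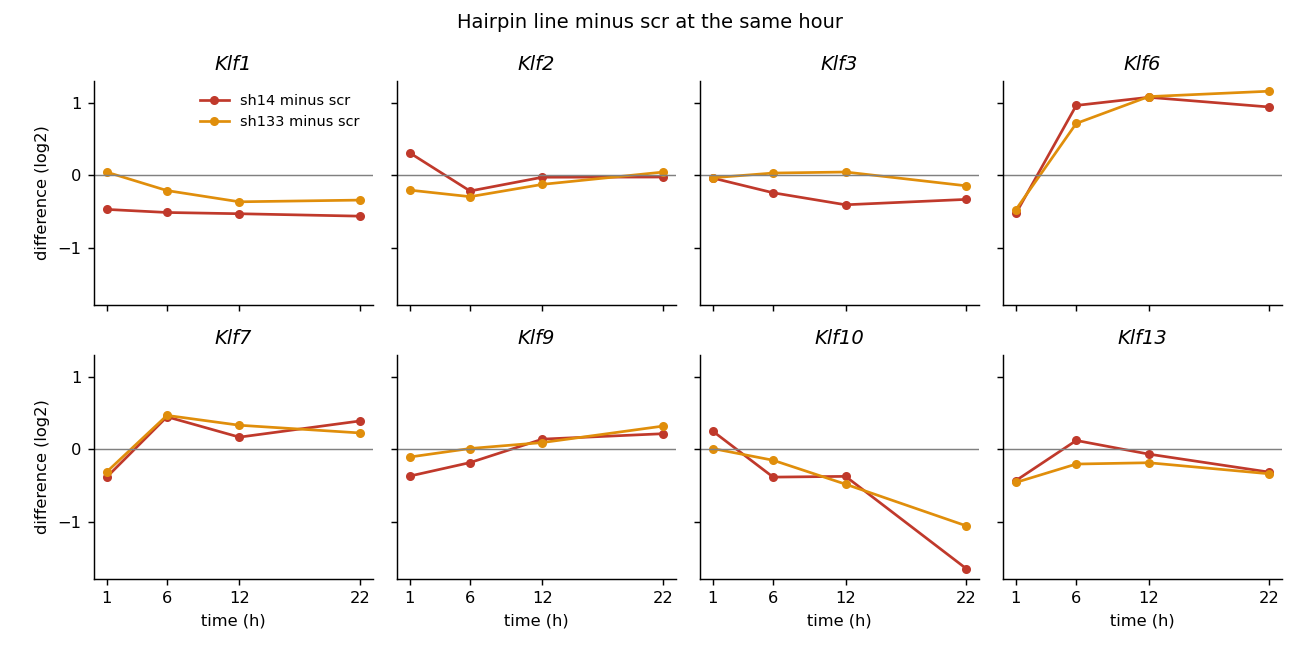
Log2 signal of sh14 and of sh133 minus that of scr at the same hour for the 8 tested members, 1 point per pair of arrays, on 1 vertical scale. Klf6 and Klf7 lie below 0 at 1 h and above 0 afterwards in both lines, and Klf10 is lowest at 22 h, at -1.65 for sh14 and -1.06 for sh133.

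Known target genes of KLF1, taken from a list chosen with earlier results of these data known, were described beside their regulator. At 22 h against 1 h, 16 of 20 tested members were higher and 1 was lower, with a median log2 difference of 0.98, against 0.02 over all genes, of which 8.74% were called higher and 9.34% lower. Slc25a37, the mitochondrial iron importer mitoferrin, differed by 2.62 ± 0.13 (SE, adjusted p = 8.73e-06). Dmtn, the membrane skeleton protein dematin, differed by 2.12 ± 0.19 (adjusted p = 8.47e-05), and Epb42, the membrane protein 4.2, by 2.05 ± 0.12 (adjusted p = 8.73e-06). Aqp1, the water channel aquaporin 1, differed by 2.01 ± 0.16 (adjusted p = 4.49e-05). Add2, an adducin of the membrane skeleton, was the 1 that fell, by 0.48 (adjusted p = 0.00924). Xpo7, Isg20 and Rhag did not pass (-0.35, 0.06 and 0.13). Tfrc, Slc4a1, Alas2, Rhag and Epb42 stand both in this list and among the erythroid markers above.

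Against scr, the sh14 line called 0 KLF1 targets higher and 4 lower of 20, with a median of -0.46 against 0.02 over all genes, where 3.06% of all genes were called. The 4 were Alas2, the first enzyme of erythroid heme synthesis (-1.83 ± 0.32, adjusted p = 0.0144), the anion exchanger Slc4a1 (-1.60 ± 0.37, adjusted p = 0.0470), Slc25a37 (-1.15 ± 0.23, adjusted p = 0.0259) and Epb42 (-1.09 ± 0.20, adjusted p = 0.0197). The sh133 line called 0 higher and 3 lower, namely Rhd (-0.68), Epb42 (-0.63) and Icam4 (-0.57), with a median of -0.13, where 4.91% of all genes were called. Between the hairpins, 2 targets were higher and 7 lower in sh14 than in sh133, with a median of -0.31, where 14.6% of all genes were called, and the 2 higher ones were Isg20 and Icam4. In sh14 cells, 2 of 6 tested mast cell and basophil markers were called higher than in scr and 0 lower. They were Fcer1a (3.08 ± 0.34, adjusted p = 0.00192) and Ms4a2 (1.36 ± 0.24, adjusted p = 0.0162). Cpa3 (0.95), Tpsb2 (0.20), Hdc (-0.0071) and Cma1 (-0.49) did not pass. Of 5 tested megakaryocyte markers, 1 was called in each hairpin line against scr. Itga2b was higher in sh14 cells by 1.85 ± 0.36 (adjusted p = 0.0243), and Pf4 was higher in sh133 cells by 2.21 ± 0.50 (adjusted p = 0.0330). In sh133 cells, 0 of the 6 mast cell and basophil markers were called higher than in scr and 1 lower, Cma1 (-0.63 ± 0.13, adjusted p = 0.0231). Its signals were low, at 1.28 to 1.56 in sh133 cells and 1.73 to 2.36 in scr cells, near the array medians of 1.84 to 1.92. The part of these markers in the differences of the KLF1 targets was not tested.

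**Figure D5:**
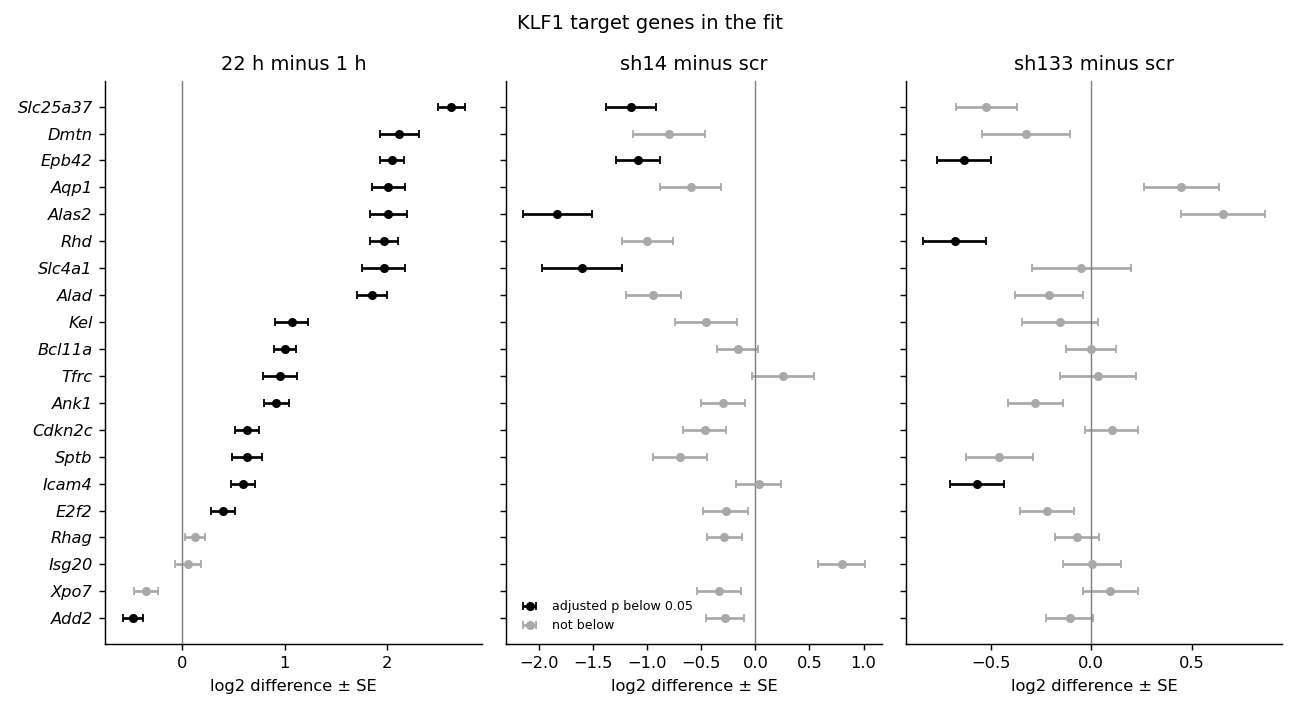
Fitted log2 difference ± SE of the 20 tested KLF1 target genes for 22 h minus 1 h, sh14 minus scr and sh133 minus scr; black points passed the threshold of adjusted p = 0.05 and grey points did not, and the horizontal scales differ. At 22 h 16 points are black above 0 and 1 below, against 4 black points in sh14 and 3 in sh133, all below 0.

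Of 15 tested cofactors of KLF1 and KLF3, 1 was higher and 2 were lower at 22 h against 1 h, where 18.1% of all genes were called, so the count is near that share. Kat2b, an acetyltransferase, rose by 1.08, Crebbp, also an acetyltransferase, fell by 0.53, and Wdr5 fell by 0.37. The C-terminal binding proteins Ctbp1 (0.15, adjusted p = 0.294) and Ctbp2 (-0.01, adjusted p = 0.980) did not pass. Smarcb1, a subunit of SWI/SNF chromatin remodelling complexes, was the 1 of 15 cofactors called in the hairpins together against scr. It was lower, at -1.41 ± 0.14 (SE, adjusted p = 0.00126), in a comparison where 2.18% of all genes were called.

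Of 9 tested other Kruppel-like and SP factors, 0 were higher and 2 lower at 22 h against 1 h, Klf5 (-0.68, adjusted p = 0.00538) and Sp1 (-0.39, adjusted p = 0.0136), a count near the 18.1% of all genes called. Sp4 was the 1 of these 9 called in the hairpins together against scr, lower at -0.69 ± 0.13 (adjusted p = 0.0271), where 2.18% of all genes were called. Klf5 (0.60, adjusted p = 0.0236), Klf11 (0.55, adjusted p = 0.0139) and Sp4 (0.42, adjusted p = 0.0322) were higher in sh14 than in sh133. In that comparison 14.6% of all genes were called.

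Lists of genes with known links to the members that fell were counted over the same hours, for which 8.74% of all genes were called higher and 9.34% lower at 22 h against 1 h. Of 13 tested glucocorticoid-induced genes, 7 fell and 1 rose at 22 h against 1 h, with a median of -0.67. Sgk1, a kinase, fell by 2.51 and Per1, a clock gene, by 1.01, while Dusp1, a phosphatase, rose by 1.23. Of 14 immediate early genes, 8 fell and 2 rose, with a median of -0.68. Egr1, a zinc finger factor, fell by 5.97 ± 0.31 (SE, adjusted p = 8.73e-06), and Fosl1, a subunit of AP-1, fell by 1.84 ± 0.18 (adjusted p = 0.000115). The 2 that rose were Btg2 (1.32) and Ier3 (0.41). Of 10 early genes of transforming growth factor beta and bone morphogenetic protein signals, 5 fell and 0 rose. The 5 were Id2 (-1.81), Id1 (-0.86), Id3 (-0.69), Tgif1 (-0.60) and Tgfbr2 (-0.55). Among 12 erythroid transcription factors 6 rose and 2 fell. Nfe2 (0.95), Zfpm1 (0.88) and Tal1 (0.80) were among those that rose, and the 2 that fell were Myb (-0.79) and Gata2 (-0.43). Of the marker lists, erythroid markers had 6 higher and 1 lower of 8, the lower one being Kit (-1.33), and mast cell and basophil markers had 3 lower (Hdc, Ms4a2 and Cpa3) and 1 higher (Cma1) of 6. Megakaryocyte markers had 1 higher of 5 (Gp9, 0.43), and granulocyte and monocyte markers had 1 higher of 3 (Lyz2, 0.41). The lymphoid markers Cd3e and Cd79a did not pass.

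For each member, the genes of most similar profile were taken by Pearson r over the 12 arrays, as a description without a test. The arrays share the step between 1 h and the later times, which any gene that moved with time also carries. Klf1 was nearest to Lactb2 (0.981), Cldn13 (0.972) and Rgs12 (0.966), and Klf3 to Mcpt2 (0.949), Tmem199 (0.946) and the KLF1 target Dmtn (0.943). Klf9 was nearest to Egr1 (0.981), Per1 (0.979) and the STAT5 target Cish (0.964). Klf6 was nearest to Cytip (0.976), Klf7 (0.965) and Traf5 (0.963), and Klf7 to Rbm33 (0.980), Ifnar2 (0.970) and Klf6. Klf2 was nearest to Mcl1 (0.954), Jarid2 (0.952) and Atf3 (0.942). The r values were lower for Klf10, with Tnpo3 (0.917), Bmpr1a (0.911) and Arf6 (0.911), and for Klf13, with Atp5d (0.931), Plin3 (0.902) and Tlr8 (0.884). Among the members themselves, Klf6 and Klf7 had the highest r, at 0.965. Next came Klf7 and Klf9 (0.942), Klf6 and Klf9 (0.938), Klf2 and Klf9 (0.934), and Klf1 and Klf3 (0.928). Klf13 had its highest r with Klf10, at 0.523.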

How the data were processed

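Per the labels' protocols, amplified and biotin-labelled RNA was put on Affymetrix arrays of the mouse genome, 12 in all. The deposited values are log2 probe set signals. Per the submitters' processing notes the authors made them with RMA, and its version is not given in the sources used here. This method makes the distributions of arrays alike, so total RNA content cannot be compared. Array medians ran from 1.84 to 1.92, and precision is limited by the number of arrays.

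The platform annotation named 1 gene for 34958 of 45101 probe sets, more than 1 for 932 and none for the remaining 9211, and 34754 were matched by Entrez identifier to RefSeq of GRCm38.p6. The brightest probe set stood for each gene, and genes whose mean was below the 40th percentile (log2 1.45) were left out, which left 12673. Tests used limma 3.58.1 (R 4.3.3), with Benjamini-Hochberg adjustment over these genes and a threshold of 0.05. Terms for shRNA, for each hour and for title date left 5 residual degrees of freedom. Slopes were fitted on log2 hours. Figures were drawn with Python 3.11.15, and the steps were tested on simulated data.

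The members and all lists were chosen with earlier results of these data known, and give no independent support. All 9 members are named, with the 3 genes of most similar profile where given, Plcg1, and up to 4 list members of largest change among those called. Genes outside this rule were chosen after their values were seen: list members that did not pass or that complete a count of 5 or fewer, and markers named for their levels. Alternatives were no title date term, no filter, a 60th percentile filter, the mean of probe sets, each probe set separately, array weights, arrays of 1 title date only, and leaving out each array.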

Additional observations from a re-analysis of the deposited data

Results flagged for a closer look

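In 27 groups, each made of the 4 arrays of a line for 1 member, the highest or lowest array was compared with the rest by Dixon's criterion, and 7 groups had 1 array far from the other 3. In all 7 that array was the one at 1 h. The 4 arrays of a line differ in time, so these are time points and not replicates, and chance marks about 1 in 20 groups. High at 1 h, Klf6 was at 6.23 in sh14 cells and at 6.76 in scr cells, and Klf9 was at 9.16 in sh133 cells and at 9.26 in scr cells. Klf2 was at 3.09 in sh14 cells, and Klf7 was at 6.82 in sh133 cells. Klf3 stood low at 1 h, at 6.71 in sh133 cells.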

How the results depend on the processing

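No paired analysis was possible because the replicate numbers follow the order of deposit and pair nothing; arrays of 1 hour were matched by the time term. At 22 h against 1 h the 7 called members kept their direction and call under every alternative in which they were tested. Where each probe set was tested separately, this takes the brightest of each gene alone. Of all their probe sets above the filter, 3 of 7 passed for Klf3 and 6 of 7 for Klf9. Klf2, with a mean of 1.90, lay under the 60th percentile filter (log2 2.60) and was not tested with that filter. Member values were counted over all comparisons and alternatives, with Klf1 and Klf3 alone for 22 h against 6 h. Of these values, 1126 kept direction and side of the threshold, 24 lost a call, 16 gained one and 46 changed sign. Leaving out 1 array in turn gave 59 to 384 genes and 0 to 1 members called for knockdown against scr, 87 to 555 and 0 to 1 for sh14 against scr, 135 to 734 and 0 to 1 for sh133 against scr, 390 to 2206 and 0 to 1 for sh14 against sh133, 1146 to 2273 genes for 22 h, 97 to 730 for 6 h and 221 to 1110 for 12 h against 1 h, 68 to 897 for 22 h against 6 h, and 0 to 361 genes and 0 to 1 members for knockdown by time. Where an array of sh133 is left out, the other of its title date alone fixes the title date term. Without the title date term the counts were 2049 genes and 1 member (knockdown), 3003 and 1 (sh14), 1592 (sh133), 3132 and 1 (sh14 against sh133), 946 (6 h) and 1 member (22 h against 6 h, Klf1). Array weights gave 452 (knockdown), 858 (sh14), 3468 and 1 member (sh14 against sh133) and 489 and 2 members (knockdown by time). The 1 h and 22 h arrays of 1 title date gave 254 genes for sh133 against scr. Testing every probe set gave 3605 (22 h) and 1357 (12 h), and 1 for knockdown by time, where a 60th percentile filter gave 1, probe set means 0, and sh14 alone 354 genes and 1 member. The slopes by line and the 22 h against 6 h comparison were chosen after seeing the data.

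Signs turned only for differences that did not pass. Leaving out single arrays, knockdown against scr ran from -0.28 to 0.14 for Klf2, -0.19 to 0.23 for Klf7, -0.070 to 0.25 for Klf9 and -0.91 to 0.034 for Klf10. For sh14 against scr it was -0.20 to 0.22, -0.30 to 0.19, -0.13 to 0.23 and -1.04 to 0.042 for the same 4 genes, and for sh133 against scr -0.35 to 0.063, -0.084 to 0.28, -0.0048 to 0.27 and -0.78 to 0.027, with Klf1 at -0.32 to 0.020. For sh14 against sh133 it was -0.27 to 0.11 (Klf6), -0.31 to 0.026 (Klf10) and -0.014 to 0.18 (Klf13), and the slope difference was -0.075 to 0.18 (Klf2), -0.057 to 0.17 (Klf7) and -0.20 to 0.13 (Klf13). Without the title date term Klf7 was at 0.17 (knockdown) and 0.16 (sh14) and Klf9 at -0.049 (sh14). Probe set means gave 0.049 for Klf7 (knockdown) and 0.030 for Klf13 (22 h against 1 h). Array weights gave Klf2 -0.032 (sh14) and a slope of 0.030, and the sh133 slope of Klf2 was 0.053. Within 1 title date Klf7 was at -0.043 (sh133 against scr) and Klf6 at 0.12 (sh14 against sh133). The cause was not tested.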
